A study of Mus musculus with 3 samples.

Results

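A set of 84 long non-coding RNAs was nearly silent in OCCM-30 cells before induction and present on both days after it. OCCM-30 is an established mouse cementoblast line. Its total RNA was sequenced before cementogenic differentiation (day 0) and once the cells had spent 7 or 14 days in cementogenic medium. Each day is a single library. The members were chosen by their counts among 46095 genes in the deposited table, of which 14151 are typed lncRNA or ncRNA. Names starting with Mir, Snor or Rnu, antisense names ending in "os" to "os3" and H19 were set aside, which left 12797 candidates. Small RNAs with other names, such as Scarna17, stayed among the candidates. A candidate became a member when its CPM, scaled by the column total alone, was below 0.5 on day 0 and 1 or more on both day 7 and day 14, so these measured values define the set and the rise from day 0 is a description of it. Of the 84 members, 65 are typed lncRNA and 19 ncRNA.

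Long non-coding RNAs are transcripts that carry no long reading frame, and many are spliced and polyadenylated much like messenger RNAs. Some act where they are made, on genes beside them in the chromosome, and others act elsewhere in the cell, while many have no known role. They are usually scarce and tend to be made in few cell types or stages. Cementoblasts line the tooth root and lay down cementum, a mineralised tissue close to bone, and share with osteoblasts the transcription factors Runx2 and Sp7 and the matrix proteins of mineralising tissue.

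The libraries held 13224690 counts on day 0, 14034518 on day 7 and 14439666 on day 14. CPM below are scaled with TMM factors, FPKM are the authors' length-adjusted values, and intervals are 95% counting intervals. They cover counting error only and hold no variation between cultures or libraries. They also treat counts as independent, although PCR copies are not independent molecules. A single library per day allows no p-value, and differences were not checked against replicates. A gene is called higher or lower where its level reached 1 CPM in at least 1 of the libraries compared, differed at least 2-fold and had an interval that excluded 1. Osteoblast and cementoblast markers were present, with 5, 8 and 8 of 8 genes at 1 CPM or more on day 0, 7 and 14 and a summed level of 9425.5, 11487 and 13042 CPM. Summed levels of 4 markers each of macrophages, endothelium, epithelium, adipocytes and skeletal muscle lay between 0.0720 and 4.08 CPM on all days. Chondrocyte markers summed to 32.1, 42.0 and 56.2 CPM on day 0, 7 and 14, of which Sox9 gave 25.8, 41.5 and 56.0 CPM, while Col2a1 had 90, 6 and 1 counts and Acan none in any library. The sum of neuron and glia markers was 3.87, 0.22 and 0.36 CPM. The part of these other cell types in the results was not tested.

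Start-site sequence was matched for 49 of the 84 members in RefSeq (GRCm38.p6, the build of the mm10 coordinates used throughout), as windows of 250 bases before and 50 after the start. Windows of 6 members are shown because the results below turn on them. Gm39718 had the highest length-adjusted level on day 7, Gm36876 lies beside Axin2 and Gm35611 beside Cebpa, Gm41254 and Gm38684 overlap Ghr and Slc44a3, and Ipw belongs to an imprinted cluster. Capitals mark matches on either strand to AP-1 (TGACTCA), the RUNX core (TGTGGT) and the AGAACA element of the glucocorticoid response motif, and the windows shown hold no match to the TATA box TATAAA, the GC box GGGCGG, the E-box CACGTG, the spaced C/EBP motif TTGCNNCAA or the palindromes of C/EBP and the glucocorticoid receptor.
Gm39718, chr1:181286923-181287222, plus strand: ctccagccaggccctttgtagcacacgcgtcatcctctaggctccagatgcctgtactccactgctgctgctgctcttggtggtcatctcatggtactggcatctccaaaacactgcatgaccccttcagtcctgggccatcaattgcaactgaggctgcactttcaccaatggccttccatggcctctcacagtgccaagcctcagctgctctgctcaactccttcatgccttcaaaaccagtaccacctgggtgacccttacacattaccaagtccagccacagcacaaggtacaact
Gm36876, chr11:108980489-108980788, plus strand: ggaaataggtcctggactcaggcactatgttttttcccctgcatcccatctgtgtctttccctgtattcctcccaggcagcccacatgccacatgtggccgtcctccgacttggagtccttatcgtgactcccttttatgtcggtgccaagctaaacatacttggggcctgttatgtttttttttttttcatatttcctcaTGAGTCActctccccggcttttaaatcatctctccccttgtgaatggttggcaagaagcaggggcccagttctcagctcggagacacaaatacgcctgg
Gm35611, chr7:35085957-35086256, plus strand: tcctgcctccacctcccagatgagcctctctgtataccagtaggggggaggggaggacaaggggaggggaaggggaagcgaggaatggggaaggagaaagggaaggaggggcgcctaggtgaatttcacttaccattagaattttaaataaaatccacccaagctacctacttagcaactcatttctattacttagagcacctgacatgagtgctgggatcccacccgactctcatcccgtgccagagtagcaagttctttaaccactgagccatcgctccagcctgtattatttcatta
Gm41254, chr15:3298240-3298539, plus strand: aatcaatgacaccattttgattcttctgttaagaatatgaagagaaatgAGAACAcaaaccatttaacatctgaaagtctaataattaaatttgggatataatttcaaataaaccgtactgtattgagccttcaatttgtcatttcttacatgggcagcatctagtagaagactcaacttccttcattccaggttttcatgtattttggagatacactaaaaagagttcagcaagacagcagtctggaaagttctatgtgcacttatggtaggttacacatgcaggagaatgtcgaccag
Gm38684, chr3:121531327-121531626, plus strand: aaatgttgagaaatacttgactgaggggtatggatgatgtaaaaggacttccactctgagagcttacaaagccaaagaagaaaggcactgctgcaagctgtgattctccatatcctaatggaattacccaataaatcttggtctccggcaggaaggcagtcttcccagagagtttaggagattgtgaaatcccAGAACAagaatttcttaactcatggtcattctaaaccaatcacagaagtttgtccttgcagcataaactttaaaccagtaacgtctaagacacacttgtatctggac
Ipw, chr7:59678829-59679128, minus strand: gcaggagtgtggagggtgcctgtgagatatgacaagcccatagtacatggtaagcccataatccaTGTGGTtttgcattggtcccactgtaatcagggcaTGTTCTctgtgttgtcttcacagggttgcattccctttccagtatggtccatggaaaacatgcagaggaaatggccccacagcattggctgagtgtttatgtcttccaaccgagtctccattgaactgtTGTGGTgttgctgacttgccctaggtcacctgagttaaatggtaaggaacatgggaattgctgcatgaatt

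The start in RefSeq equalled that of the deposited table for 26 of the 49 members, among them Gm39718 and Ipw, and was more than 1 kb away for 4. For Gm35611, Gm41254 and Gm38684 it lay 94, 285 and 608 bases downstream, and for Gm36876 its offset was -755 bases. With 1 window per gene, the members' windows had a median GC content of 50% and 4 CpG dinucleotides, against 54.3% and 9 in 845 candidates that reached 1 CPM in a library and 56.7% and 14 in 15633 protein-coding genes. The GC box GGGCGG, a motif of CpG-rich promoters, was in 8 of 49 member windows (16.3%), against 41.9% of those candidates, 47.8% of protein-coding genes and 37.9% of all 23100 windows. AGAACA was in 15 (30.6%), against 18.3% of candidates, 16.2% of protein-coding genes and 18.8% of all windows. AP-1 was in 5 member windows (10.2%, 5.10% of all windows), the TATA box in 5 (10.2%, 13.9%) and the RUNX core in 8 (16.3%, 16.5%). The hypoxia response core GCGTG was in 15 (30.6%, 33.7%), the E-box CACGTG in 1 (2.04%, 7.53%) and the spaced C/EBP motif in 3 (6.12%, 2.08%). The wider E-box CANNTG, which also takes in CACGTG, was in 40 (81.6%, 71.9%), and neither the glucocorticoid nor the C/EBP palindrome was found in a member window. These matches describe letters in a window and were not tested.

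Appearance after induction was a pattern of 5.37% of the 1563 candidates that reached 1 CPM in a library. The reverse pattern, 1 CPM or more on day 0 and below 0.5 on both later days, was met by 57 candidates (3.65%). Among 12133 protein-coding genes at 1 CPM or more in a library, 1.24% met the pattern of the set and 1.48% the reverse one.

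In RNA from a whole culture, more cells that make an RNA and more RNA per cell cannot be told apart. Member counts ran from 0 to 6 on day 0 with a median of 3, from 15 to 270 on day 7 with a median of 28, and from 15 to 357 on day 14 with a median of 22.5. No member had a count on day 0 as high as its count on either later day. Summed over the 84 members the level was 16.9 CPM on day 0, 226 CPM on day 7 and 203 CPM on day 14. On day 7 all 84 were higher than on day 0 and on day 14 82 were, where 28.3% and 20.8% of tested candidates and 12.2% and 9.5% of all tested genes were called higher. No member was lower, where 13.7% and 9.68% of candidates and 11.4% and 8.14% of all genes were. These counts follow from the rule that chose the members. The 2 members that missed the day 14 call were Gm39936 and 8430423G03Rik, whose intervals reached below 1. Gm39936 had 6, 24 and 15 counts on day 0, 7 and 14, and 8430423G03Rik had 6, 19 and 15.

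**Figure D1:**
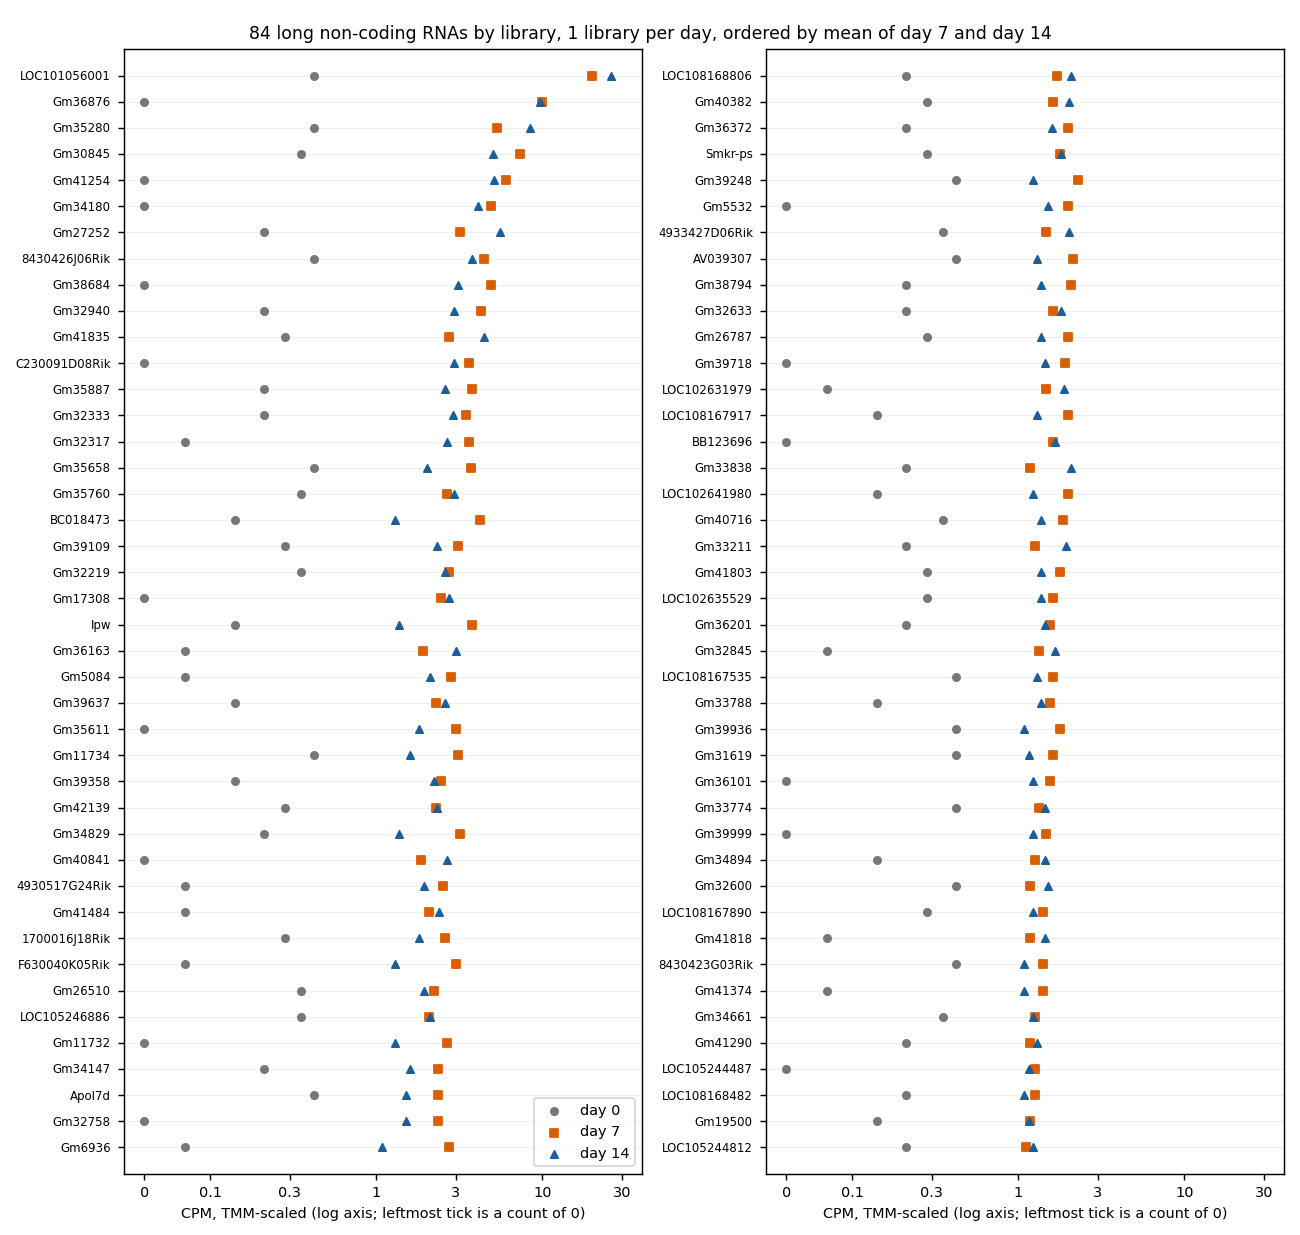
Level of each of the 84 non-coding RNAs in the 3 libraries, in TMM-scaled CPM on a log axis whose leftmost tick is a count of 0. Grey circles are day 0, orange squares day 7 and blue triangles day 14, and each RNA's day 0 point lies left of its other points. LOC101056001 and Gm36876 stand at the top, while most of the others lie between 1 and 5 CPM after induction.

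A group of 16 members had no count on day 0, which allows up to 3 counts or 0.211 CPM. Against that floor their measured levels were 5.95-fold to 46.9-fold higher on day 7 and 5.46-fold to 46.1-fold higher on day 14. These folds leave out the counting error of the later day. For LOC105244487, the lowest on both days, the interval of the ratio started at 4.33 on day 7 and 3.95 on day 14. Gm36876 had the most counts of the group, with 0, 134 and 135 on day 0, 7 and 14. Gm41254 had 0, 82 and 71 counts, and Gm34180 had 0, 66 and 57. The other 68 members had 1 to 6 counts on day 0, and their median ratio was 8.83 on day 7 (range 2.80 to 51.4) and 8.19 on day 14 (2.56 to 60.9). With day 0 of the 16 set at the floor of 3 counts, the median over all 84 was 9.31 on day 7 and 8.19 on day 14.

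The set was scarce even after induction. Its median FPKM was 0.0772, 1.104 and 0.809 on day 0, 7 and 14, against 1.61, 1.80 and 1.74 for candidates at 1 CPM in the same library and 8.713, 8.082 and 7.995 for protein-coding genes with a count. Fewer than 30 counts on both induced days were found for 42 members, and 50 or more for 13 on day 7 and 9 on day 14. The thresholds fall within the counting error of many of them. Just inside the day 0 limit, 8430423G03Rik, 8430426J06Rik and AV039307 had 6 counts on day 0, and just outside it 1700022N22Rik, 9430018G01Rik and Gm12279 had 7. LOC105244812 entered with 15 counts on day 7 and Gm19500 and Gm32600 with 16, and 5430416O09Rik and Scarna17 missed with 14 there and 1700049J03Rik with 13. Gm41374, Gm39936 and 8430423G03Rik entered with 15 counts on day 14, and Gm34982 and Gm39717 missed with 14 and B230319C09Rik with 13.

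By mean FPKM over day 7 and day 14 the leading member was Gm39718, a short gene model of 274 bases between genes on chromosome 1 (chr1:181287173-181288556), at 0, 6.76 and 5.06 FPKM on day 0, 7 and 14 from only 0, 26 and 20 counts. Gm32333, with a model of 539 bases, had 0.421, 6.21 and 5.14 FPKM from 3, 47 and 40 counts, and was above Gm39718 on day 14. Its flanking gene Mettl11b, 85.1 kb away, had no count in any library. In counts both rank below LOC101056001 and Gm36876.

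LOC101056001 was the most abundant member in counts, with 6, 270 and 357 on day 0, 7 and 14 (0.0773, 3.25 and 4.18 FPKM). It was 47.2-fold higher on day 7 (interval 21.4 to 130) and 60.9-fold higher on day 14 (27.7 to 167) than on day 0. It gave 8.82% of the members' summed counts on day 7 and 12.7% on day 14. The gene lies at chr11:99417138-99425499 in the type I keratin cluster, antisense to Krt12, a keratin of corneal epithelium, and spans 6 of the 8 merged GENCODE exons of that gene. Krt12 had 1, 54 and 41 counts on day 0, 7 and 14. The flanking Krt20 had 0, 3 and 0 counts and Krt10 had 50, 61 and 76. LOC105246886, 156 kb further along the same cluster, had 5, 28 and 29 counts, and the 8 keratin-associated and related genes it spans had none in any library. The 4 epithelial markers summed to 0.14, 0.15 and 0.07 CPM on day 0, 7 and 14.

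Others of the 20 most abundant by FPKM were short models between genes with middling counts. 8430426J06Rik had 6, 60 and 52 counts on day 0, 7 and 14, or 0.427, 4.03 and 3.39 FPKM. LOC102635529 had 4, 22 and 19 counts (0.653, 3.39 and 2.84 FPKM), and 0.339 kb separates it from the nearest protein-coding gene. Smkr-ps, Gm33211, Gm39999, Gm36372, 4930517G24Rik, LOC108167535 and Gm26510 had mean levels of 1.66 to 2.60 FPKM over day 7 and 14. Their counts were 0 to 6 on day 0, 17 to 34 on day 7 and 17 to 27 on day 14.

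Most members overlapped no protein-coding gene and did not start head to head with one. Between genes here means no overlap and no oppositely transcribed start within 5 kb. The class takes in members close to a gene, such as Ipw at 0.042 kb and LOC102635529 at 0.339 kb. By the positions in the deposited table, 56 of 84 (66.7%) lay between genes, against 35.4% of 1554 candidates at 1 CPM on chromosomes. Another 20 (23.8%, against 28.3%) overlapped a protein-coding gene on the opposite strand, 3 (3.57%, against 19.6%) on the same strand, and 5 (5.95%, against 16.8%) started head to head within 5 kb of one without overlap. The median gap to the nearest protein-coding gene was 25.6 kb for members that overlap none and 5.64 kb for such candidates. For 8 members that gap was over 100 kb, with 303 kb for Gm36372 the widest. Shares of this kind were not tested.

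The members were spread over 19 chromosomes, with 9 on chromosome 11, 8 each on chromosomes 1 and 6, and 7 on chromosome 2. Gene models had a median length of 2279 bases (274 to 17446) and a median locus of 12.1 kb. GENCODE held 27 of them by name, 20 as lincRNA, 3 as antisense, 3 as processed transcript and 1 as bidirectional promoter lncRNA. Each had 2 to 5 exons in the transcript with the most exons. RefSeq held 69 as lncRNA, 44 of them with the same leftmost coordinate as the deposited table. No mature miRNA lay inside a member.

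Members also lay close to each other in 11 cases, where another member was within 250 kb. Gm38794 and Gm34147 on chromosome 6 converge, with 0.807 kb between their ends. Gm38794 had 3, 28 and 19 counts on day 0, 7 and 14, and Gm34147 had 3, 32 and 22. Gm31619, Gm32600 and Gm32845 lie in sequence on chromosome 2 beyond Snai1, and Gm11732 and Gm11734 are 84.3 kb apart on chromosome 11. Gm27252 and Gm32633 are 85.7 kb apart on chromosome 7, and Klf13 overlaps Gm27252.

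Protein-coding genes beside the members were more often higher than lower after induction. They were taken by position alone, as the nearest protein-coding gene on each side within 100 kb that overlaps no member, which gave 107 genes. On day 7, 22 of 78 tested were higher than on day 0 (28.2%) and 2 were lower (2.56%), where 10% of all tested protein-coding genes were higher and 11.3% lower. On day 14, 14 of 75 were higher (18.7%) and 0 lower, against 8.03% and 7.9%. The median log2 ratio was 0.42 on day 7 and 0.35 on day 14, against -0.03 for protein-coding genes on both days. Without the TMM factor all log2 ratios shift by -0.16 and the counts become 18 higher and 4 lower on day 7 and 12 and 1 on day 14, where 8.2% and 6.66% of protein-coding genes were then higher and 14.4% and 10.2% lower. Both comparisons use the same day 0 library.

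Neighbours of other candidates show the range of such shares. Around the 57 candidates with the reverse pattern, 2 of 54 tested neighbours were higher and 17 lower on day 7 (31.5%), and 2 and 8 of 55 on day 14. Around the remaining candidates at 1 CPM, 125 of 1337 were higher (9.35%) and 120 lower (8.98%) on day 7, and 103 and 73 of 1338 on day 14. No test of the difference between these sets was made. Among the members' neighbours, those within 25 kb were higher on day 7 in 10 of 37 cases and those at 25 to 100 kb in 12 of 41. Neighbours transcribed in the direction of the member were higher in 17 of 48 cases on day 7, and those in the opposite direction in 7 of 32. A gene beside members of both strands, such as Kdm7a, is in both of these groups.

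**Figure D2:**
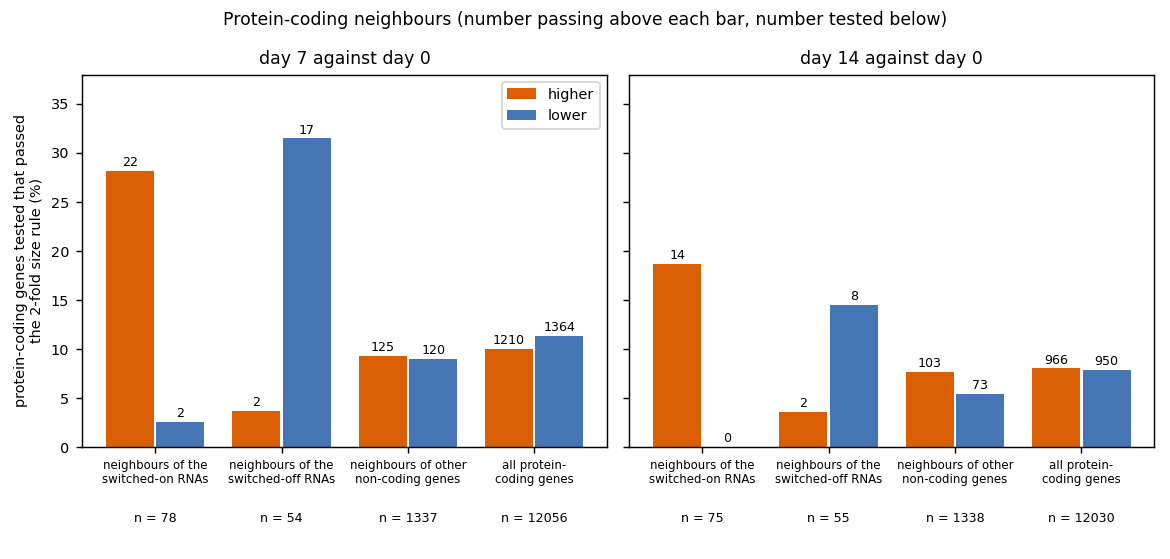
Share of tested protein-coding genes that passed the 2-fold rule, in percent, on day 7 (left) and day 14 (right) against day 0. Bars, orange for higher and blue for lower, stand for neighbours of the switched-on RNAs, of the RNAs with the reverse pattern, of other non-coding genes and for all protein-coding genes, with the number called above each bar. On day 7 the orange bar is the taller one for neighbours of the switched-on RNAs (22 against 2) and the blue one for neighbours of the switched-off RNAs (2 against 17).

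Several of these neighbours encode regulators. Axin2, a scaffold that restrains Wnt signalling and is itself induced by it, had 32, 396 and 358 counts on day 0, 7 and 14. It was 12.99-fold higher on day 7 (interval 9.05 to 19.2) and 11.5-fold higher on day 14 (7.97 to 17.0) than on day 0. Gm36876 starts 30.7 kb beyond its end in the same direction (chr11:108981494-109034783), and no count of it was found on day 0. Cebpa, a transcription factor of fat and myeloid cell differentiation, had 46, 322 and 345 counts and was 7.35-fold higher on day 7 (5.38 to 10.2) and 7.68-fold higher on day 14 (5.63 to 10.7). Gm35611 (chr7:35086113-35096631), with 0, 41 and 25 counts, lies 22.7 kb before it in the same direction and 29.5 kb from Cebpg, a partner of the same bZIP family, which had 1528, 3369 and 2983 counts.

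Snai1, a repressor of epithelial genes, had 155, 510 and 503 counts on day 0, 7 and 14 and lies 28.5 kb from Gm31619 with 6, 22 and 16. Kdm7a, a histone demethylase, had 1185, 8301 and 7358 counts, 7.35-fold more on day 7 (6.92 to 7.82) and 6.36-fold more on day 14 (5.98 to 6.77), and is the gene nearest to Gm38794 and Gm34147. Mlxip, a glucose-responsive transcription factor, had 730, 2060 and 1852 counts beside LOC102641980 with 2, 27 and 17. That RNA also overlaps Bcl7a, a subunit of the BAF chromatin remodelling complexes, with 94, 202 and 192 counts. Axin2, Cebpa, Snai1, Kdm7a and Mlxip were called higher on both days, from day 0 counts that ran from 32 to 1185.

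A secreted protein and enzymes were also among the neighbours called higher on both days. Sepp1, the secreted selenium carrier, had 953, 6138 and 6336 counts on day 0, 7 and 14 and ends 17.7 kb before Gm41254. Ddc, which makes dopamine and serotonin from their precursors, had 21, 114 and 120 counts beside LOC102631979, and Mgmt, a DNA repair enzyme, had 44, 128 and 163 beside Gm39109. Gm38664 and 1810011O10Rik, had 16, 76 and 89 and 177, 603 and 525 counts and lie beside Gm39718 and Gm30845. Gm30845 itself had 5, 99 and 70 counts and ends 1.93 kb before 1810011O10Rik on the same strand.

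**Figure D3:**
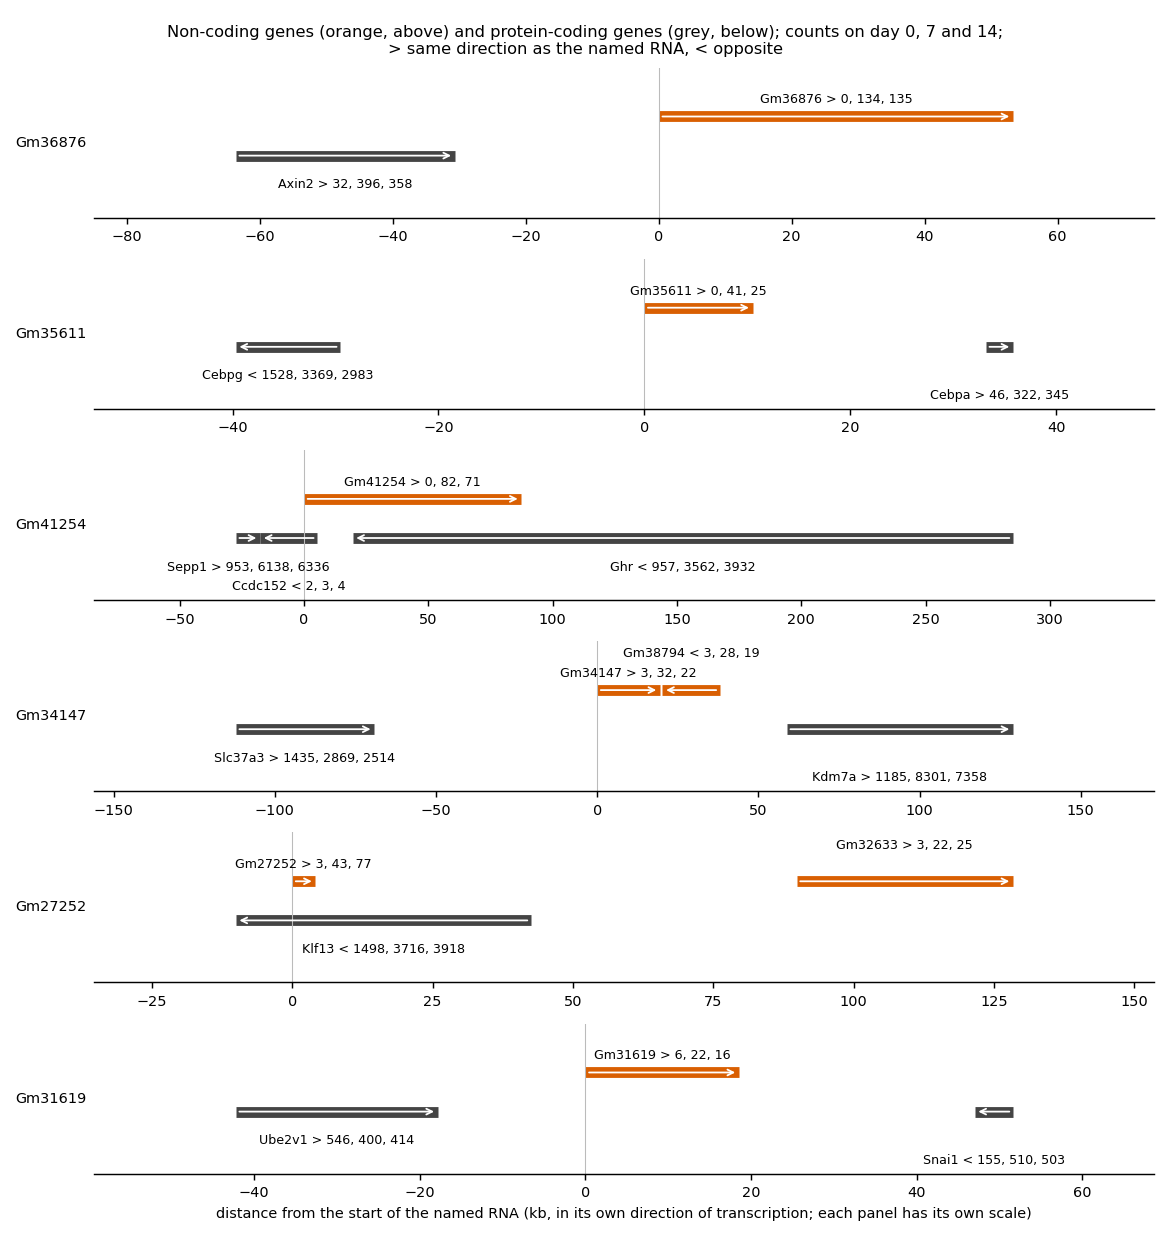
Maps of 6 members (orange, above) and their protein-coding neighbours (grey, below), with counts on day 0, 7 and 14 beside each name and arrows for the direction of transcription. The x axis is the distance in kb from the start of the named RNA, with a scale of its own in each panel. Gm36876, Gm35611, Gm41254, Gm34147, Gm27252 and Gm31619 and at least 1 gene in each panel have their lowest count on day 0.

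Genes that overlap a member were also more often higher than lower, but reads in the overlap can be assigned to either gene, because the sources used here do not give the strand setting of the counting. Of 32 such genes 21 were tested, 11 were higher on day 7 and 11 on day 14 (52.4% each), and 0 were lower on either day. Of all tested protein-coding genes, 10% on day 7 and 8.03% on day 14 were higher, and 11.3% and 7.9% lower. Genes overlapped by other candidates were not compared. In 9 of the 32 overlaps the non-coding gene lies within 1 intron of the GENCODE gene model, and 18 of the 32 start in an intron.

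Ghr, the growth hormone receptor, had 957, 3562 and 3932 counts on day 0, 7 and 14, and was 3.91-fold higher on day 7 (3.64 to 4.20) and 4.21-fold higher on day 14 (3.92 to 4.52) than on day 0. Gm41254 runs against it (chr15:3298205-3385627), starts outside Ghr in an exon of Ccdc152, and spans 10 of the 19 merged exons of Ghr. Ccdc152 itself had 2, 3 and 4 counts. Grb10, an imprinted adaptor that dampens insulin and growth factor signalling, had 114, 816 and 854 counts, and LOC102631979, inside an intron on the same strand, had 1, 20 and 26. On the same strand too, Cped1 had 34, 437 and 278 counts beside 3, 15 and 17 for LOC105244812, and Ebf4, an early B-cell factor family member, had 261, 628 and 547 beside 6, 24 and 15 for Gm39936. In these 3 same-strand pairs the member lies inside an intron of its host and had far fewer counts than it.

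Gm38684 and Slc44a3, a choline transporter-like protein, gave nearly the same counts. Gm38684 had 0, 66 and 43 on day 0, 7 and 14, and Slc44a3 had 0, 64 and 41. They lie on opposite strands and Gm38684 covers 2 merged exons of Slc44a3, so the reads of the pair cannot be told apart here. Chosen after its values were seen, A530020G20Rik, a gene of unknown type within 25 kb on the strand of Gm38684, had 3, 498 and 401 counts.

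Further antisense members lie inside genes that were called higher on both days. Gm32317 had 1, 49 and 37 counts on day 0, 7 and 14 and lies against Col15a1, a basement membrane collagen, with 25, 186 and 127. Gm27252 had 3, 43 and 77 counts and lies in an intron of Klf13, a zinc finger transcription factor with 1498, 3716 and 3918. Gm42139 had 4, 31 and 32 counts and lies against Klhl8 with 171, 529 and 502.

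Other overlapped genes stayed within 2-fold of day 0 while the non-coding partner appeared. Nav1, a neuron navigator, had 2728, 2035 and 2123 counts on day 0, 7 and 14, beside 3, 58 and 41 for Gm32940. Rpgrip1l, a protein of the ciliary transition zone, had 1033, 1360 and 1594 beside 1, 26 and 42 for Gm36163. Vmp1, an autophagy protein, had 1475, 1903 and 1614 beside 2, 27 and 18 for LOC108167917. Within 2-fold on both days were also Bcor with LOC108168482, Zfp821 with Gm39248, Vegfb with Gm41803, Ubr1 with AV039307, and Ei24 and Stt3a with Gm26787. These 5 members had 3 to 6 counts on day 0, 17 to 31 on day 7 and 15 to 19 on day 14. Gm35280, the longest model at 17446 bases, had 6, 72 and 117 counts inside Cntnap2, a neuronal adhesion protein that had 0, 2 and 1, and Gm39358 had 2, 33 and 31 inside Iqch, with 5, 4 and 1. Armc2 was higher on day 7 alone, with 83, 194 and 89 counts, beside 4, 35 and 25 for 1700016J18Rik, and Ror1, a Wnt receptor, passed on day 14 with 234, 416 and 483, beside 5, 36 and 41 for Gm35760.

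The 5 members that start head to head with a protein-coding gene and overlap none had partners that mostly were not called higher. Apol7d had 6, 32 and 21 counts on day 0, 7 and 14 and starts 0.1 kb from Fn1, the matrix protein fibronectin, which was called higher with 35827, 72796 and 73034 counts. LOC108167890 had 4, 19 and 17 counts and B3gnt2, a glycosyltransferase 0.143 kb away, had 669, 1058 and 914, within 2-fold. LOC108168806 had 3, 23 and 29 counts and Ahcy, the hydrolase of S-adenosylhomocysteine, had 57, 43 and 50. F630040K05Rik had 1, 41 and 18 counts beside 0, 1 and 0 for 1600014C23Rik, and LOC105244487 had 0, 17 and 16 beside 2, 0 and 0 for Hapln2. Of the 5 partners, only Fn1 passed the size rule, while 1600014C23Rik and Hapln2 were below 1 CPM in every library and not tested. Some members that overlap a gene also start within 5 kb of an oppositely transcribed start. Of such partners, Slc44a3 and Bcl7a were higher on both days and Armc2 on day 7 alone. Stt3a, Ttbk2 and Fkbp2 stayed within 2-fold, and Krtap1-4 had no count. Krtap1-5, 0.756 kb from LOC105246886, had 1, 10 and 3 counts, was below 1 CPM in every library and was not tested.

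Fewer neighbours went down. Rnls, an oxidase called renalase, had 56, 11 and 29 counts on day 0, 7 and 14, and lies 62.8 kb from Gm41835, which had 4, 37 and 62. Gpatch4 had 135, 44 and 78 counts and lies 6.90 kb from LOC105244487. Both were lower on day 7 than on day 0, and within 2-fold on day 14.

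The order of day 14 and day 7 was not set by the rule, but the rule asks for 1 CPM or more on both days. Genes that fell below 1 CPM on day 14, or reached it only then, are therefore not members. Candidates and all genes were not held to that floor. On day 14, 0 members were higher than on day 7 and 6 were lower (7.14%), where 2.78% of all tested genes were higher and 2.3% lower, and 5.79% of tested candidates were higher and 7.08% lower. The members' share of lower calls lay near that of non-coding candidates, but the floor on both days limits this comparison. The median log2 ratio was -0.22, against -0.05 for candidates, 53 members had fewer counts on day 14 than on day 7, and the interval excluded 1 for 15 of the 84, lying above 1 for 4 and below 1 for 11.

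**Figure D4:**
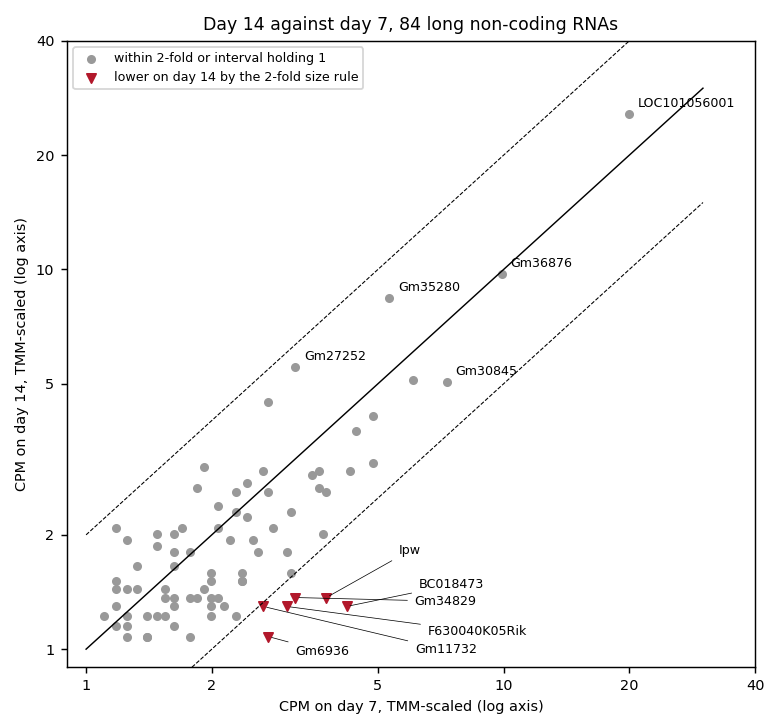
Level on day 14 (y axis) against day 7 (x axis) of the 84 members, in TMM-scaled CPM on log axes. The solid line marks equal levels and the dashed lines a 2-fold difference. Red triangles are the 6 RNAs lower on day 14, all at 1.37 CPM or less there, and LOC101056001 lies highest on both axes.

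Lower on day 14 were Ipw, BC018473, Gm6936, F630040K05Rik, Gm34829 and Gm11732. Ipw, a spliced RNA of the Prader-Willi region expressed from the paternal chromosome, had 19 counts on day 14 against 51 on day 7, a ratio of 0.364 (interval 0.203 to 0.626). BC018473 had 18 counts on day 14 against 57 on day 7, a ratio of 0.308 (0.171 to 0.531). Gm6936 had 15 against 37, a ratio of 0.396 (0.202 to 0.738), and the other 3 had ratios of 0.428, 0.431 and 0.488 from 18 or 19 counts on day 14 and 36 to 43 on day 7. The upper bound of these 6 intervals was 0.882 or less, from 15 to 57 counts a library. Toward the other side, 4 members had an interval above 1 without reaching 2-fold. Gm27252 had 77 counts on day 14 against 43 on day 7 (ratio 1.75, interval 1.19 to 2.60), Gm41835 62 against 37 (1.64), Gm35280 117 against 72 (1.59) and LOC101056001 357 against 270 (1.29).

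Neighbours were close to balanced in this comparison, with 2 higher on day 14 than on day 7 (Rnls and Wdr66) and 3 lower (Cnih3, Gm22496 and LOC102640399) of 78 tested, where 2.21% of protein-coding genes were higher and 1.29% lower. Their median log2 ratio was 0.01. Gm22496 and LOC102640399 both lie in the chromosome 7 cluster that holds Ipw.

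That cluster, the imprinted Prader-Willi and Angelman region, holds 2 members, and the genes named in it were chosen after their values were seen. C230091D08Rik, at the end near Ube3a (chr7:59307924-59324149), had 0, 49 and 41 counts on day 0, 7 and 14. Ipw, at the other end (chr7:59619158-59678878), had 2, 51 and 19, and LOC102640399, which ends 0.042 kb before it on the same strand, had 2, 29 and 4. Between them, LOC101055630 had 3, 40 and 10 counts, Gm22496 had 6, 25 and 11, and LOC105247259 had 0, 16 and 3. These 6 genes are transcribed on the minus strand, and each has its highest count on day 7 and its lowest on day 0. Of all 14 minus-strand genes with a count in the stretch, 11 had their highest count on day 7, while Gm42387 had 0, 5 and 6 counts, LOC102637691 2, 8 and 8, and Gm42389 0, 0 and 2. Ube3a, the ubiquitin ligase on the plus strand 1.19 kb from C230091D08Rik, had 2990, 3393 and 3451 counts and stayed within 2-fold. Snord116, the small nucleolar RNA entry inside Ipw, had 0, 2 and 0 counts.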

How the data were processed

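Total RNA of OCCM-30 cells on day 0, 7 and 14 was sequenced, with 1 library per day. The tools named for mm10, per the submitters' processing notes, are Cufflinks, DESeq, HISAT2, HTSeq and TopHat; the sources used here give no versions, roles or strand setting. The deposited gene table holds raw counts, gene lengths and positions. The FPKM deposited by the authors equalled count over length and column total within a relative tolerance of 0.001 for every member with a count and for 98.8% to 98.9% of detected genes. Deposited miRNA counts were searched for mature miRNAs inside members; the miRNA TPM were not used.

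Membership used CPM of the column total, without a TMM factor. All other CPM used TMM factors (1.08, 0.966 and 0.962 for day 0, 7 and 14) from edgeR 4.0.16 in R 4.3.3. Ratios came from scaled counts, with exact Clopper-Pearson 95% intervals conditional on the sum of counts. Log2 ratios added a pseudocount of 0.5 CPM, which understates changes of low genes. Folds against 0 used 3 counts as the floor of that library. The size rule was applied to the whole table and tested on simulated counts. Python 3.11.15, pandas 2.3.3, numpy 2.4.6, scipy 1.17.1 and matplotlib 3.10.9 were used, with GENCODE and RefSeq annotation of the same build.

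Named were the 20 members with the highest mean FPKM over day 7 and 14, those that differed between day 14 and day 7, 3 genes on each side of each threshold, members that overlap a protein-coding gene or start within 5 kb of the start of an oppositely transcribed one, and neighbours called higher or lower on both days against day 0; further genes named, such as members and neighbours given as examples of a location or a count, were chosen after their values were seen. A result that the rule takes is not reported here. The members, marker lists, motifs and alternatives were chosen with earlier results of these data known. Other settings tried were total counts, size factors of DESeq2 1.42.0, the authors' FPKM ratios, other minimums, pseudocounts, thresholds and neighbour distances.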

Additional observations from a re-analysis of the deposited data

How the results depend on the processing

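Under total counts, the neighbours called lower were 4 on day 7 and 1 on day 14, with median log2 ratios of 0.27 and 0.19, and under the authors' FPKM ratios 4 and 1, with 0.26 and 0.19. With a 4-fold threshold, neighbours against day 0 were higher in 10 and lower in 1 case on day 7 and higher in 7 on day 14, and between day 14 and day 7 0 members were lower and 0 neighbours higher. With a minimum of 5 CPM, 5 members were higher on day 7 and 6 on day 14, 1 neighbour was lower on day 7, and between day 14 and day 7 0 members were lower and 0 neighbours higher or lower. With no minimum, 4 neighbours were higher on day 14 than on day 7. Neighbours within 50 kb gave 1 lower on day 7 and 1 higher on day 14 than on day 7, those within 250 kb gave 1 lower on day 14 than on day 0, and with overlapping genes included 25 were higher on day 14. The set would hold 52 members below 0.25 CPM on day 0, 16 with no count there and 23 at 2 CPM or more on both later days. With the 2-fold threshold on the pseudocount scale, an alternative chosen after seeing the data, 3 members were lower and 0 neighbours higher on day 14 than on day 7. Of 216 results for 72 named genes, the number no longer called was 6 under total counts, 4 under FPKM ratios, 97 with the 5 CPM minimum, 33 with the 4-fold threshold and 7 on the pseudocount scale. No called result changed direction under the alternatives run, and results that were not called were not checked for direction. DESeq2 size factors moved none of these calls or counts by over 1.5 times. The median member has 28 counts on day 7 and 22.5 on day 14, which limits every call between day 14 and day 7. No paired analysis was possible because each day has 1 library, and for the same reason no library could be left out.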
